A study of Saccharomyces cerevisiae with 4 samples.

Results

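The 37 genes described here encode the chaperones of the yeast cytosol and mitochondrial matrix, their co-chaperones, other heat shock genes and HSF1, the gene of the heat shock transcription factor. They were chosen by name. All 37 were measured, among 5449 genes of Saccharomyces cerevisiae on Affymetrix Yeast Genome arrays, 36 of them by 1 probe set and SSB1 by 2. The values are RMA signals on the log2 scale, so that a difference of 1 is a 2-fold change, and a probe set's level says nothing of how one gene's mRNA compares with another's. Sequences of the genes and probes were not used here.

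Chaperones bind unfolded or partly folded proteins and help them reach or keep their native form. Hsp70 proteins work in cycles of ATP binding and hydrolysis, driven by J-domain partners and reset by nucleotide exchange factors, and pass some clients on to Hsp90 or to the chaperonins. Some yeast chaperone genes are transcribed at all times in growing cells, whereas others are kept low and induced by heat and other stress through Hsf1, Msn2 and Msn4.

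The 4 arrays came from 2 Sen1ΔN and 2 wild-type cultures, grown as independent experiments. Sen1 is a nuclear helicase that acts in ending the transcription of snoRNAs and further non-coding transcripts, and Sen1ΔN is named for a deletion at its N terminus. By its label the Sen1ΔN strain is MATα and carries the lys2-801 and ade2-101 alleles, trp1-_delta_1 with his3-200, ura3-52 and an allele written leu2-_delta_1::sen1-2. The wild type is BY4741, labelled MATa with his3_delta_1 and leu2_delta_0 together with met15_delta_0 and ura3_delta_0. The strains thus differ in mating type and markers as well as in SEN1, and these cannot be told apart in any difference below. All cultures were grown in synthetic complete medium with 2% glucose at 24 °C, without a heat shock or other treatment, and harvested in exponential phase at an OD600 of 1.5.

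The labels were checked first. SEN1 gave 12.01 and 12.17 on the Sen1ΔN arrays, against 10.66 and 10.57 on the wild-type arrays. Its probe set was not placed relative to the deletion, so this does not check the truncation. The genes specific to MATa cells were lower and those specific to MATα cells higher in Sen1ΔN, as labelled. The log2 differences ran from -5.25 for BAR1 to 8.08 for HMLALPHA1, which lay at background in the wild type. The next largest was 6.97, for MF(ALPHA)2. HIS3, with a his3 allele in both labels, gave 6.36 and 5.91 in Sen1ΔN (his3-200), against 11.93 and 11.94 in the wild type (his3_delta_1). LEU2, with a leu2 allele in both labels, gave 12.17 and 12.21 in Sen1ΔN, against 6.01 and 6.07 in the wild type. How much of HIS3 or LEU2 each allele leaves was not looked up, so these signals do not test the labels. MET17, the gene of the met15 label, gave 12.13 and 12.09 in Sen1ΔN, against 3.83 and 4.48 in the wild type, at background there as labelled. URA3, with a ura3 allele in both labels, gave 7.94 and 8.05 in Sen1ΔN, against 5.08 and 5.21, at background, in the wild type. The arrays also differed in a measure of RNA or label length. In the 6 of 8 yeast control transcripts with a 5′ signal over background on each array, the 3′ minus 5′ log2 signal ran from 2.20 to 5.91 on the Sen1ΔN arrays and from 0.15 to 2.29 on the wild-type arrays. It was larger in Sen1ΔN for all 6. Its part in the differences below was not tested. Replicate arrays correlated across genes at r = 0.993 in Sen1ΔN and 0.997 in the wild type.

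Most chaperone genes were lower in Sen1ΔN, and the heat-inducible ones had the larger median difference. In limma, with 2 arrays per strain and p-values adjusted over all 5449 genes, 26 of the 37 genes fell at an adjusted p under 0.05, which is 70.3%, beside 34.4% of all genes. At least 2-fold falls numbered 13, or 35.1%, beside 11.3% of all genes. Only 4 genes rose (HSP30, MGE1, CPR7 and HSP10), beside 35.3% of all genes, and none of them 2-fold, beside 8.63%. The other 7 did not pass the test; in either direction 69.7% of all genes passed. The median log2 difference was -0.53 for the 37 genes and 0.01 for all genes. Less mRNA in every cell and its loss from part of the cells cannot be told apart in such cultures.

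Both Sen1ΔN arrays lay below both wild-type arrays for 27 genes, beside 42.9% of all genes, and above them for 5, beside 44.3%. CUR1 and APJ1, which did not pass the test, are among these. For the other 5 the strains overlapped. The median gap between replicates of these genes was 0.09 on the Sen1ΔN arrays and 0.07 on the wild-type arrays, and the standard errors of the differences ran from 0.06 to 0.18. All 37 genes lay above background on every array. The highest signal was 14.22, close to the top of the arrays' range at 14.74, where a log2 difference may understate a change.

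**Figure D1:**
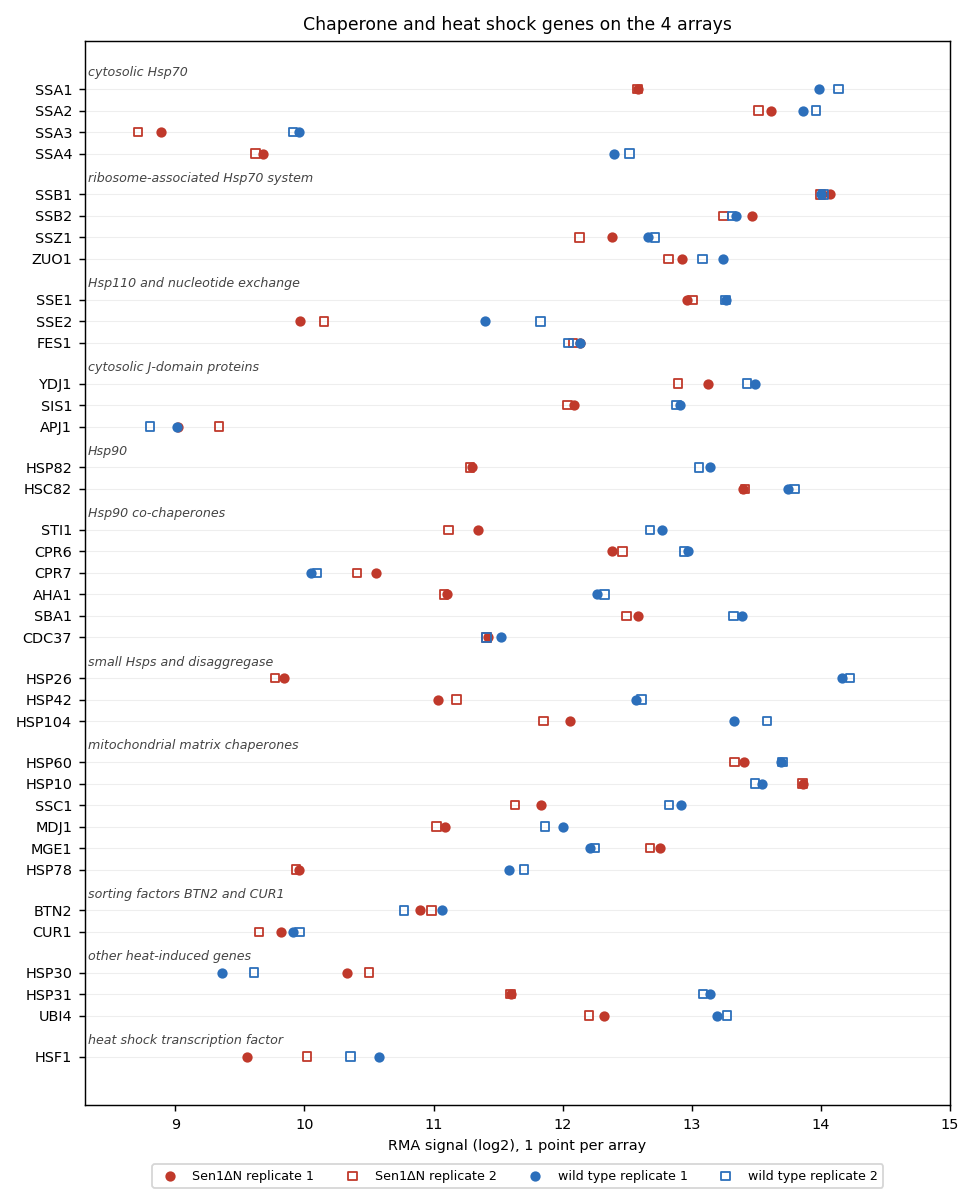
RMA signal (log2, horizontal axis) of the 37 genes on each array, grouped by role; red points are the 2 Sen1ΔN arrays and blue points the 2 wild-type arrays, with replicate 1 filled and replicate 2 open. HSP26 and SSA4 show the widest gaps between the strains, while the points of SSB1, SSB2, FES1, BTN2 and CDC37 overlap.

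The cytosolic Hsp70 genes fell without exception, by very different amounts. SSA4 (YER103W), the strongly heat-induced Hsp70 gene, had a signal of 9.68 and 9.62 on the Sen1ΔN arrays, against 12.40 and 12.52 on the wild-type arrays. It fell by 2.81 (SE 0.08, limma adjusted p = 5.77e-05), a 7.01-fold difference. SSA1 (YAL005C), expressed in growing cells and further induced by heat, gave 12.59 and 12.58 in Sen1ΔN, against 13.99 and 14.14 in the wild type, a fall by 1.48 (SE 0.08, limma adjusted p = 0.000207). In both genes the gap between the strains was many times that between replicates. SSA3 (YBL075C), a stress-induced form that is low in growing cells, gave 8.89 and 8.71 in Sen1ΔN, against 9.96 and 9.91 in the wild type, a fall by 1.13 (SE 0.09, limma adjusted p = 0.000446). SSA2 (YLL024C), the constitutive form, differed least. Its signal was 13.61 and 13.52 in Sen1ΔN, against 13.86 and 13.96 in the wild type, a fall by 0.35 (SE 0.08, limma adjusted p = 0.0134). SSA2 lost the call without wild type replicate 2, at a difference of -0.29, and its adjusted p ran from 0.00128 to 0.097 over 13 alternative settings. SSA1 and SSA2 are near-identical genes, and how far their probe sets share signal is not known here.

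The Hsp70 system that sits on the ribosome and meets nascent chains showed small differences or none that passed the test. SSB1 (YDL229W) and SSB2 (YNL209W), near-identical constitutive Hsp70 genes, overlapped between the strains. SSB1 gave 14.07 and 14.00 in Sen1ΔN, against 14.00 and 14.02 in the wild type, a difference of 0.02 with a 95% interval from -0.16 to 0.19. SSB2 gave 13.47 and 13.25 in Sen1ΔN, against 13.34 and 13.31 in the wild type, a difference of 0.03 (-0.22 to 0.28). Between the strains, 1 of the 2 probe sets of SSB1 differed by 0.05 and the other, whose ID marks shared probes, by -0.01. SSZ1 (YHR064C) and ZUO1 (YGR285C), whose products form the ribosome-associated complex that stimulates Ssb, were modestly lower. SSZ1 gave 12.38 and 12.13 in Sen1ΔN, against 12.66 and 12.71 in the wild type, and fell by 0.43 (SE 0.10, limma adjusted p = 0.017). ZUO1 gave 12.93 and 12.82 in Sen1ΔN, against 13.24 and 13.08 in the wild type, and fell by 0.29 (SE 0.09, limma adjusted p = 0.0356). Neither call held throughout. SSZ1 lost it without wild type replicate 1 (-0.46) or replicate 2 (-0.41), and ZUO1 without either of these (-0.21 and -0.37) or without Sen1ΔN replicate 2 (-0.24). With the trend of the differences on gene length removed, SSZ1 differed by -0.28 (limma adjusted p = 0.0615) and ZUO1 by -0.08 (limma adjusted p = 0.443), in ranges over the 13 settings from 0.00272 to 0.117 and from 0.0102 to 0.443.

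Among the nucleotide exchange factors, the inducible Hsp110 gene differed far more than its constitutive partner. SSE2 (YBR169C) gave 9.96 and 10.15 in Sen1ΔN, against 11.40 and 11.83 in the wild type, and fell by 1.56 (SE 0.16, limma adjusted p = 0.00116). SSE1 (YPL106C), the major form, gave 12.97 and 13.01 in Sen1ΔN, against 13.26 on each wild-type array, and fell by 0.28 (SE 0.06, limma adjusted p = 0.0151). The arrays of SSE1 did not overlap, but the call was lost without either wild type replicate, at differences of -0.27 and -0.28, and under quantile normalization, at -0.13 (limma adjusted p = 0.153, the highest of a range from 0.0018). FES1 (YBR101C), which encodes an exchange factor of another type and is an Hsf1 target, did not pass the test. Its signal was 12.13 and 12.08 in Sen1ΔN, against 12.14 and 12.04 in the wild type, a difference of 0.02 (95% interval -0.17 to 0.20).

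J-domain proteins hand clients to Hsp70 and start its ATP hydrolysis. SIS1 (YNL007C), the essential member, gave 12.08 and 12.04 in Sen1ΔN, against 12.91 and 12.88 in the wild type, and fell by 0.84 (SE 0.07, limma adjusted p = 0.000477). YDJ1 (YNL064C), the major J-protein gene of the cytosol, gave 13.12 and 12.89 in Sen1ΔN, against 13.49 and 13.43 in the wild type, and fell by 0.45 (SE 0.10, limma adjusted p = 0.0128). Its call was lost without wild type replicate 1, at -0.42, and with the length trend removed, at -0.24 (limma adjusted p = 0.0882, in a range from 0.00245 to 0.101). APJ1 (YNL077W), a heat-induced J-protein gene, did not pass, although its arrays separated the other way. It gave 9.02 and 9.34 in Sen1ΔN, against 9.01 and 8.81 in the wild type, a difference of 0.27 (95% interval -0.09 to 0.63). It passed without Sen1ΔN replicate 1, at 0.43, and with the length trend removed, at 0.43 (limma adjusted p = 0.0431, in a range from 0.0201 to 0.435).

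Both Hsp90 genes fell, the inducible one more. HSP82 (YPL240C) gave 11.30 and 11.28 in Sen1ΔN, against 13.14 and 13.05 in the wild type, and fell by 1.80 (SE 0.07, limma adjusted p = 0.000108). HSC82 (YMR186W), the constitutive copy, gave 13.40 and 13.41 in Sen1ΔN, against 13.74 and 13.79 in the wild type, and fell by 0.37 (SE 0.07, limma adjusted p = 0.00622). The arrays of each gene separated by strain. HSC82 lost the call without wild type replicate 2, at -0.34. The genes are near-identical in sequence, and how far their probe sets share signal is not known here.

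Of the 6 Hsp90 co-chaperone genes, 4 fell (66.7%, beside 34.4% of all genes). CPR7 rose (16.7%, beside 35.3%) and CDC37 did not pass. STI1 (YOR027W), whose product bridges Hsp70 and Hsp90, gave 11.34 and 11.11 in Sen1ΔN, against 12.77 and 12.68 in the wild type, and fell by 1.49 (SE 0.10, limma adjusted p = 0.000343). AHA1 (YDR214W), the gene of the activator of Hsp90's ATPase, gave 11.11 and 11.08 in Sen1ΔN, against 12.27 and 12.32 in the wild type, and fell by 1.20 (SE 0.07, limma adjusted p = 0.00021). These were the 2-fold falls of the group. SBA1 (YKL117W), the yeast p23 gene, gave 12.58 and 12.49 in Sen1ΔN, against 13.39 and 13.32 in the wild type, and fell by 0.82. The cyclophilin genes CPR6 and CPR7 went opposite ways. CPR6 (YLR216C) gave 12.38 and 12.46 in Sen1ΔN, against 12.97 and 12.94 in the wild type, and fell by 0.53 (SE 0.07, limma adjusted p = 0.00217). CPR7 (YJR032W) gave 10.55 and 10.41 in Sen1ΔN, against 10.05 and 10.10 in the wild type, and rose by 0.41 (SE 0.08, limma adjusted p = 0.00865). CPR7 lost the call without wild type replicate 1, at 0.38. CDC37 (YDR168W), which brings kinases to Hsp90, gave 11.42 and 11.41 in Sen1ΔN, against 11.52 and 11.41 in the wild type, a difference of -0.05 (95% interval -0.24 to 0.14).

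Both small heat shock protein genes and the disaggregase gene fell at least 2-fold. HSP26 (YBR072W), the gene of a small heat shock protein that holds unfolding proteins, gave 9.84 and 9.77 in Sen1ΔN, against 14.16 and 14.22 in the wild type. It fell by 4.39 (SE 0.07, limma adjusted p = 1.53e-05), a 20.9-fold difference and the 16th lowest of the 5449 genes. HSP42 (YDR171W), the other small heat shock protein gene, gave 11.03 and 11.18 in Sen1ΔN, against 12.57 and 12.61 in the wild type, and fell by 1.48 (SE 0.08, limma adjusted p = 0.000209). So HSP26 differed by far more than HSP42, and in both genes the arrays separated by strain. HSP104 (YLL026W), which encodes the disaggregase, gave 12.06 and 11.85 in Sen1ΔN, against 13.32 and 13.58 in the wild type, and fell by 1.50 (SE 0.12, limma adjusted p = 0.000543).

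The chaperones of the mitochondrial matrix went both ways, 4 down (66.7%, beside 34.4% of all genes) and 2 up (33.3%, beside 35.3%). The share of rises was thus near that of all genes. HSP78 (YDR258C), the mitochondrial relative of HSP104, gave 9.96 and 9.93 in Sen1ΔN, against 11.58 and 11.70 in the wild type, and fell by 1.69 (SE 0.07, limma adjusted p = 0.000138). SSC1 (YJR045C), the essential Hsp70 gene of the import motor, gave 11.83 and 11.63 in Sen1ΔN, against 12.92 and 12.82 in the wild type, and fell by 1.14 (SE 0.10, limma adjusted p = 0.000565). The partners of Ssc1 parted. MDJ1 (YFL016C), its J-protein gene, gave 11.09 and 11.02 in Sen1ΔN, against 12.00 and 11.86 in the wild type, and fell by 0.88 (SE 0.08, limma adjusted p = 0.000737). MGE1 (YOR232W), its exchange factor gene, gave 12.75 and 12.68 in Sen1ΔN, against 12.21 and 12.25 in the wild type, and rose by 0.48 (SE 0.07, limma adjusted p = 0.00294). The chaperonin genes, whose products form 1 folding chamber and its lid, also parted. HSP60 (YLR259C) gave 13.41 and 13.33 in Sen1ΔN, against 13.69 and 13.70 in the wild type, and fell by 0.33 (SE 0.07, limma adjusted p = 0.0102), a call lost without wild type replicate 1 (-0.34) or replicate 2 (-0.32). HSP10 (YOR020C) gave 13.86 on each Sen1ΔN array, against 13.54 and 13.49 in the wild type, and rose by 0.34 (SE 0.06, limma adjusted p = 0.00753). HSP10 is the shortest of the 37 genes, at 321 bp. With the length trend removed its difference turned to -0.16 (limma adjusted p = 0.0868, in a range from 0.000316), and without wild type replicate 2 it lost the call at 0.32.

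BTN2 and CUR1, genes of factors that sort misfolded protein into deposits and are targets of Hsf1, did not pass the test. BTN2 (YGR142W) gave 10.89 and 10.98 in Sen1ΔN, against 11.07 and 10.77 in the wild type, so the strains overlapped at a difference of 0.02 (95% interval -0.29 to 0.33). CUR1 (YPR158W) gave 9.82 and 9.65 in Sen1ΔN, against 9.91 and 9.96 in the wild type, a difference of -0.21 (-0.43 to 0.02). CUR1 passed without Sen1ΔN replicate 1, at -0.29. The 3 remaining heat-induced genes moved apart. HSP31 (YDR533C), whose product detoxifies methylglyoxal, gave 11.60 and 11.59 in Sen1ΔN, against 13.14 and 13.09 in the wild type, and fell by 1.52 (SE 0.07, limma adjusted p = 0.000133). UBI4 (YLL039C), the stress-induced polyubiquitin gene, gave 12.32 and 12.20 in Sen1ΔN, against 13.19 and 13.27 in the wild type, and fell by 0.97 (SE 0.08, limma adjusted p = 0.000502). Its ubiquitin repeats occur in other genes too, so its signal is uncertain. HSP30 (YCR021C), the gene of a plasma membrane protein that restrains the proton pump Pma1, rose instead. It gave 10.33 and 10.50 in Sen1ΔN, against 9.36 and 9.61 in the wild type, a rise by 0.93 (SE 0.12, limma adjusted p = 0.00201), the largest among the 37 genes.

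HSF1 (YGL073W) itself gave 9.55 and 10.02 in Sen1ΔN, against 10.58 and 10.36 in the wild type. It fell by 0.68 (SE 0.18, limma adjusted p = 0.0223), with the largest standard error of the 37 genes. The difference was -0.91 without Sen1ΔN replicate 2 and -0.45 without replicate 1, and the call was lost without wild type replicate 1, at -0.57. An mRNA level says nothing of the activity of the Hsf1 protein, which is controlled after translation.

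**Figure D2:**
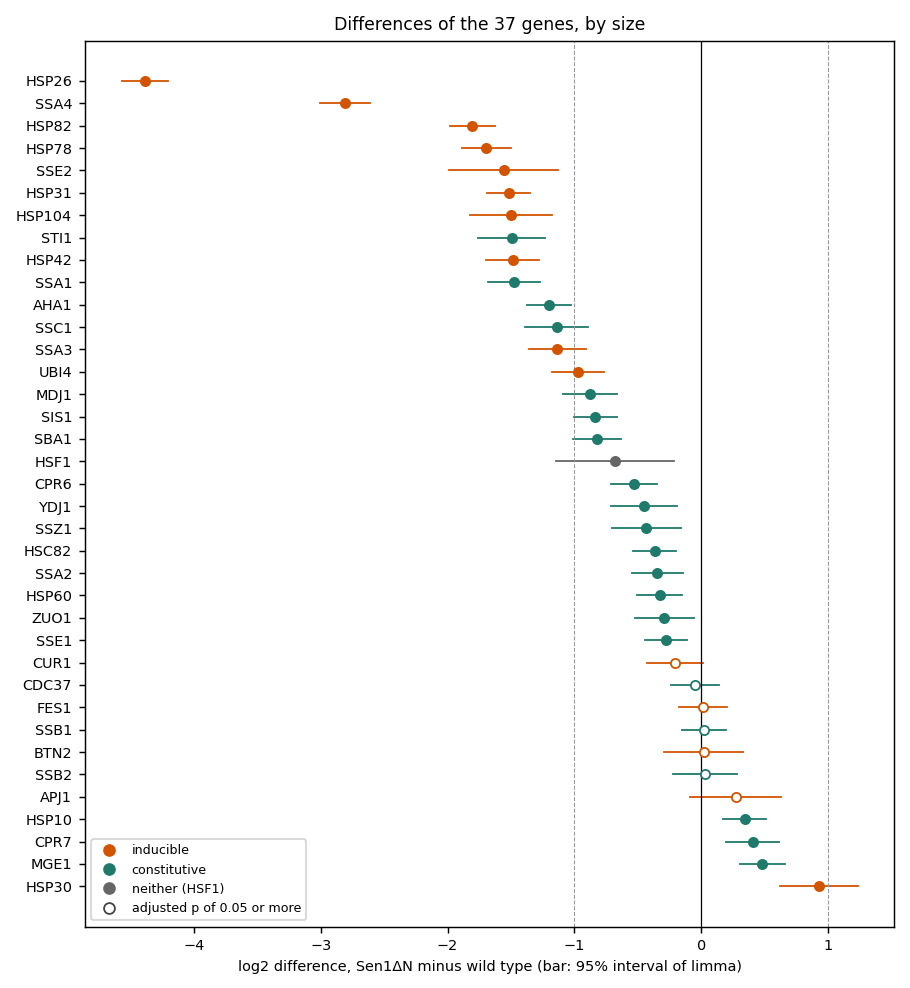
Log2 difference, Sen1ΔN minus wild type, of the 37 genes ordered by size (points), with the 95% interval of limma (bars); orange marks inducible and green constitutive genes, open points did not pass the test, and dashed lines mark 2-fold. The differences run from -4.39 for HSP26 to 0.93 for HSP30.

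Sorted by how they are expressed, the 15 inducible genes had a median log2 difference of -1.48 and the 21 constitutive genes one of -0.37, beside 0.01 for all genes. HSF1 was put in neither class. Of the inducible genes 10 fell, 9 of them at least 2-fold, HSP30 rose and 4 did not pass (FES1, APJ1, BTN2 and CUR1). Of the constitutive genes 15 fell, 4 of them at least 2-fold (SSA1, STI1, AHA1 and SSC1), 3 rose and 3 did not pass. Falls made up 66.7% of the inducible and 71.4% of the constitutive genes, beside 34.4% of all genes. The share of falls was thus not larger in the inducible class. Over all genes, 11.3% fell at least 2-fold and 35.3% rose. Both classes thus leaned the same way, with the larger median in the inducible one. The 10 inducible falls were called in each of the 13 alternative settings, whereas 8 of the 15 constitutive falls were; without wild type replicate 2, 9 constitutive genes fell, and over all genes 1457 did, against 1875 with all 4 arrays. The split itself follows general knowledge of these genes, but it was made with earlier results of these data known. It was not tested as a difference between classes. SSA1, STI1, AHA1, SIS1, YDJ1 and others placed among the constitutive genes are also raised by heat.

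**Figure D3:**
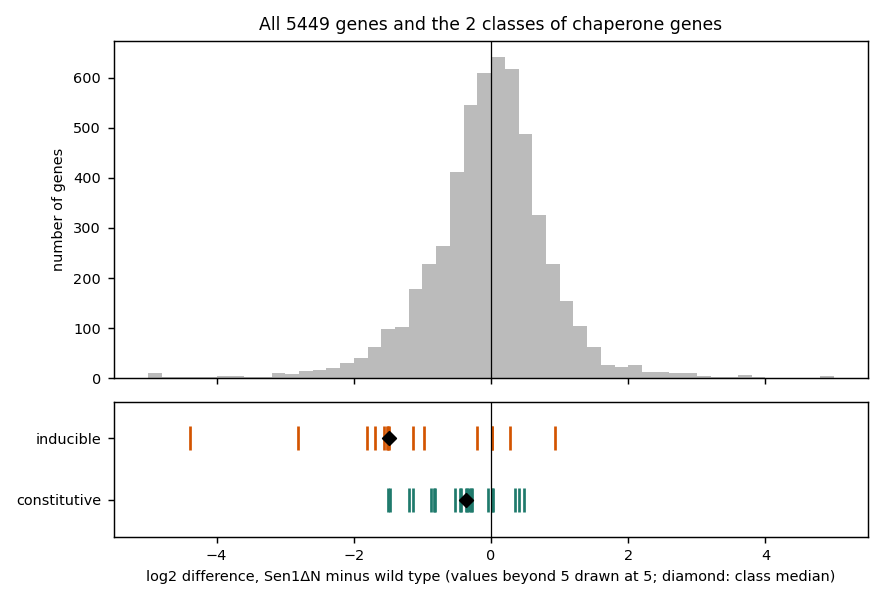
Histogram of the log2 difference, Sen1ΔN minus wild type, of all 5449 genes (top) and the single genes of both classes (bottom, ticks) with the class medians (diamonds, -1.48 for inducible and -0.37 for constitutive genes). The inducible ticks reach from HSP26 at -4.39 to HSP30 at 0.93.

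Within families, an inducible copy was set beside its constitutive paralog. The within-array log2 difference HSP82 minus HSC82 was -2.10 and -2.13 on the Sen1ΔN arrays, against -0.60 and -0.74 on the wild-type arrays, a change of -1.44. For SSA4 minus SSA2 it was -3.94 and -3.90 in Sen1ΔN, against -1.46 and -1.44 in the wild type, a change of -2.46. For SSE2 minus SSE1 it was -3.00 and -2.85 in Sen1ΔN, against -1.86 and -1.43 in the wild type, a change of -1.28. In all 3 pairs both Sen1ΔN arrays lay below both wild-type arrays. An exact permutation test, two-sided, gave p = 0.333 for each pair, the smallest that 2 against 2 arrays allow. The genes of a pair are nearly equal in length, so removing the length trend could hardly move these changes, which stood at -1.44, -2.46 and -1.28. This is no test of the 3′ minus 5′ shift in the pairs. HSC82, SSA2 and SSE1 lay nearer the top of the scale, where differences may be understated, with wild-type means of 13.77, 13.91 and 13.26. The means of HSP82, SSA4 and SSE2 were 13.10, 12.46 and 11.61. The part of this in the changes was not tested.

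Gene length was set beside these results because of the 3′ minus 5′ shift. The 8 genes shorter than 1000 bp had a median difference of -0.09, with 3 falls and 3 rises, beside 0.15 for all genes of that length, of which 29.4% fell and 44.3% rose. The 29 longer genes had a median of -0.68, with 23 falls and 1 rise, beside -0.07 for all genes of that length, of which 37.5% fell and 29.6% rose. The rises of HSP10 (321 bp), MGE1 (687 bp) and HSP30 (999 bp, at the edge of the cut) were in genes under 1000 bp, and that of CPR7 in a longer one. With the length trend of all genes removed, 23 of the 37 genes fell (62.2%, beside 31.7% of all genes) and 4 rose (10.8%, beside 37.3%). At least 2-fold falls numbered 13 (35.1%, beside 10.2%), and the median was -0.32, beside 0.05 for all genes. The class medians were then -1.28 for inducible and -0.25 for constitutive genes. HSP26, at 645 bp, then stood at -4.44 and SSA4, at 1929 bp, at -2.72. The 4 rises were then those of HSP30 (1.12, now at least 2-fold), CPR7 (0.62), MGE1 (0.48) and APJ1 (0.43), while HSP10 stood at -0.16.

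**Figure D4:**
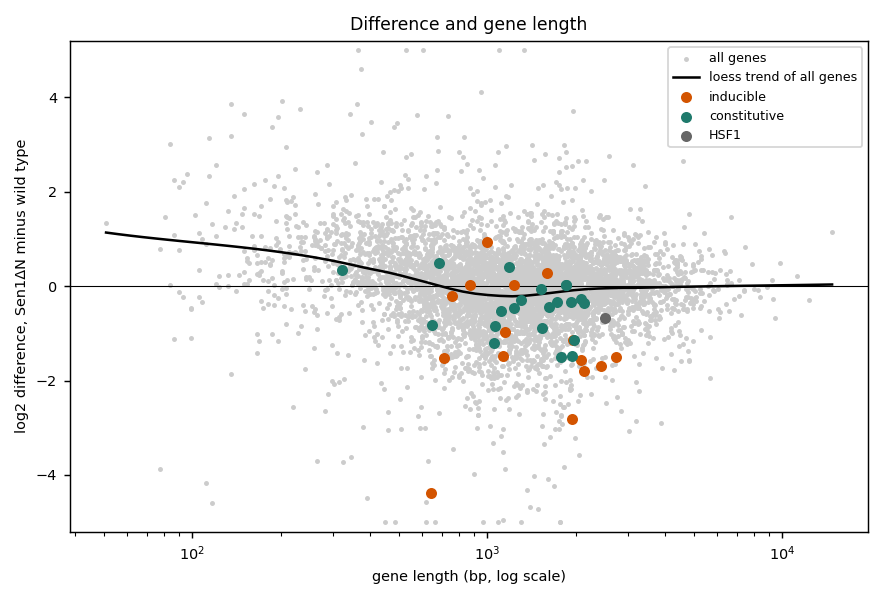
Log2 difference, Sen1ΔN minus wild type, against gene length (bp, log scale) for all genes (grey, values beyond 5 drawn at 5), the 15 inducible genes (orange), the 21 constitutive genes (green) and HSF1 (dark grey), with the loess trend of all genes (line). The shortest genes tend to lie above 0, and most inducible genes longer than 1000 bp lie below -1.

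Other folding and heat shock genes, in 7 lists of 71 genes, gave 35 falls (49.3%, beside 34.4% of all genes) and 18 rises (25.4%, beside 35.3%). Their median was -0.24, and 12 of the falls were at least 2-fold (16.9%, beside 11.3%). The lists differed in direction. Chaperones and folding enzymes of the endoplasmic reticulum fell in 12 of 13 cases, 9 of them at least 2-fold, with a median of -1.47. PDI1, the protein disulfide isomerase gene, gave 12.00 and 11.86 in Sen1ΔN, against 14.16 and 14.18 in the wild type, and fell by 2.24 (SE 0.08, limma adjusted p = 9.2e-05). The exchange factor gene SIL1, the oxidoreductase gene MPD1 and the J-protein gene SCJ1 fell by 2.10, 2.07 and 2.04. CNE1, the calnexin gene, was the exception, with a rise of 0.24 (limma adjusted p = 0.0266). It lost the call without Sen1ΔN replicate 1 (0.22), without wild type replicate 1 (0.21) or replicate 2 (0.26), and with the replicate block (limma adjusted p = 0.059, in a range over the settings from 0.00454 to 0.177).

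Prefoldin, which delivers nascent actin and tubulin to the cytosolic chaperonin CCT, went the other way, with 5 of 6 genes higher and PAC10 lower. The rises were 83.3%, beside 35.3% of all genes and 44.3% of those shorter than 1000 bp. The list's median was 0.67. PFD1 gave 10.94 and 11.00 in Sen1ΔN, against 9.13 and 9.04 in the wild type, and rose by 1.88 (SE 0.07, limma adjusted p = 0.000109), and GIM4 rose by 1.34. The prefoldin genes are short (median 407 bp), and all 659 genes of up to 500 bp had a median difference of 0.52. With the length trend removed, 4 of the 6 rose (66.7%, beside 37.3% of all genes) and 1 fell. The median was then 0.37, beside 0.05 for all genes. Of the 8 CCT subunit genes 4 fell (50%, beside 34.4% of all genes) and none rose, with a median of -0.22 and no 2-fold change. Without wild type replicate 2, 2 of them fell. Under quantile normalization 2 rose, and with the length trend removed 3 fell and 2 rose.

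Further co-chaperones of Hsp70 and Hsp90 were mixed, with 7 rises and 4 falls among 15 genes and a median of 0.12. The rises were 46.7% of the list, beside 35.3% of all genes, and the falls 26.7%, beside 34.4%. Without wild type replicate 1, and likewise in the unmoderated linear model, 2 of the 15 fell. TAH1, of an Hsp90 adaptor complex, rose by 1.37, the J-protein gene JJJ1 rose by 1.12, and SWA2, of clathrin uncoating, fell by 1.25. In the further genes of the mitochondrial Hsp70 system, 4 of 10 fell (40.0%, beside 34.4% of all genes) and 2 rose (20.0%, beside 35.3%), a share of falls near that of all genes. Without wild type replicate 2, 1 rose, and in the unmoderated linear model 2 fell and 1 rose. TIM44, which tethers Ssc1 to the import channel, fell by 1.21. ECM10, a paralog of SSC1, gave 9.90 and 9.98 in Sen1ΔN, against 7.29 and 7.51 in the wild type, and rose by 2.54 (SE 0.10, limma adjusted p = 0.000112), opposite to the fall of SSC1 by 1.14. Of 6 protease genes of mitochondrial quality control, 4 fell and none rose, and YME1, of the inner membrane, fell by 1.03. Without wild type replicate 1, 2 of the 6 fell, and with the length trend removed 1 rose.

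Regulators and partners of the heat shock response fell in 6 of 13 cases (46.2%, beside 34.4% of all genes) and rose in 3 (23.1%, beside 35.3%), or in 1 in the unmoderated linear model. MSN2, a transcription factor gene of the general stress response, gave 10.02 and 9.75 in Sen1ΔN, against 10.55 and 10.48 in the wild type, and fell by 0.63 (SE 0.11, limma adjusted p = 0.00613). Its partner MSN4 did not pass, at -0.22 (95% interval -0.53 to 0.09), and passed without wild type replicate 1, at -0.37. RPN4, the activator gene of the proteasome, rose by 0.42 (SE 0.08, limma adjusted p = 0.00623). GAC1, a regulatory subunit gene of protein phosphatase 1, gave 9.38 and 10.10 in Sen1ΔN, against 8.14 and 8.39 in the wild type, and rose by 1.47 with a standard error of 0.25. HSP12, the gene of a small membrane-stabilising protein, did not pass. It gave 14.09 and 14.17 in Sen1ΔN, against 14.33 and 14.32 in the wild type, a difference of -0.19 (95% interval -0.37 to -0.01, limma adjusted p = 0.0559) near the top of the scale. HSP12 is 330 bp long, and with the length trend removed it passed, at -0.68. It also passed without Sen1ΔN replicate 2, at -0.24, under quantile normalization, at -0.23, and with a trended and robust eBayes fit, at the same -0.19.

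**Figure D5:**
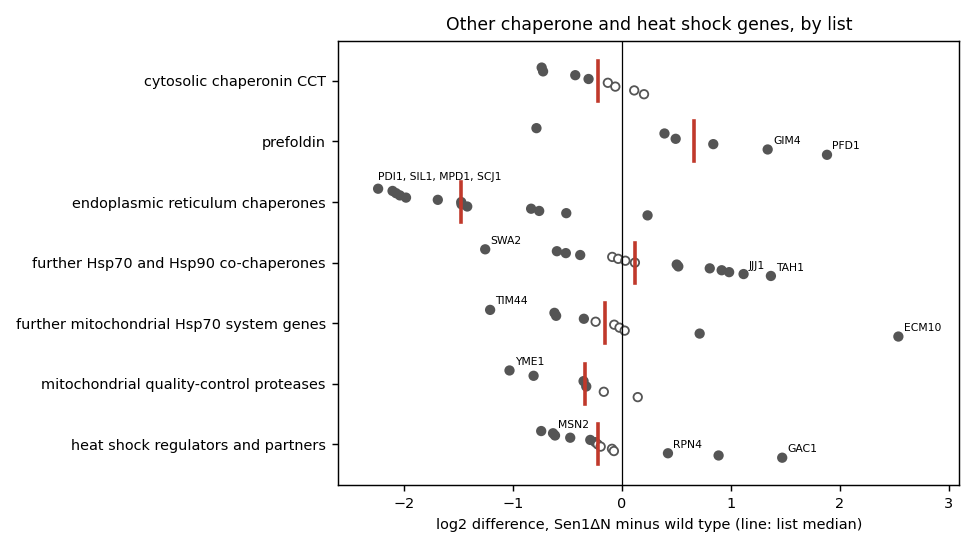
Log2 difference, Sen1ΔN minus wild type, of 71 other chaperone and heat shock genes in 7 lists; filled points passed the test, open points did not, and the red line is the list's median. The endoplasmic reticulum list lies lowest, with a median of -1.47, and prefoldin highest, at 0.67.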

How the data were processed

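Total RNA of 4 cultures was measured on 1 array each. The deposited values are log2 signals, 1 per probe set, made with RMA in Affymetrix Expression Console, per the submitters' processing notes; versions, and which arrays were normalized together, are not given in the sources used here. Of 10928 probe sets, 5498 carried 1 S. cerevisiae gene, through the platform annotation and the R64 reference table, and were averaged to 5449 genes. The 95th percentile of the 1746 S. pombe probe sets served as background (5.36 and 5.35 on the Sen1ΔN arrays, 5.26 and 5.23 on the wild-type arrays).

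Each gene's difference, Sen1ΔN minus wild type, was estimated with limma 3.58.1 (lmFit and eBayes) in R 4.3.3, two-sided, on 2 residual degrees of freedom, adjusted by Benjamini-Hochberg over all genes, and the script was tested on simulated data. The p-values rest on the spread between both cultures of each strain, which eBayes draws toward a spread shared by all genes. The number of arrays limits the precision. The genes, lists and classes were chosen with earlier results of these data known. Besides the 37 genes, the text names SEN1, mating-type and labelled marker genes, MSN2, MSN4, RPN4, HSP12 and the called genes of each list with at least a 2-fold difference, at most 4 by size; CNE1 and PAC10, exceptions within their lists, were named after their values were seen. Lists are described by counts and medians, without a test. Other settings tried were the replicate number as a block, each array left out in turn, quantile normalization, median centring, a background filter (genes above background on at least 2 arrays), eBayes with trend and robust moderation, an unmoderated linear model, the brightest probe set, no probe sets marked as shared, and removal of a loess trend (span 0.5) on gene length.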

Additional observations from a re-analysis of the deposited data

How the results depend on the processing

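Over 13 alternative settings, 18 of the 26 falls and 1 of the 4 rises among the 37 genes were called in every one; HSP10 alone reversed, to -0.16 with the length trend removed. The median of the 37 genes was -0.37 under quantile normalization and -0.32 with the length trend removed, that of the inducible genes -1.38 and -1.28, and that of the constitutive genes -0.25 with the length trend removed. That setting also gave 2 inducible rises, and quantile normalization ended the calls of SSE1 and ZUO1. The unmoderated linear model, which borrows no spread across genes, called 1236 falls and 1209 rises over all genes, 21 falls and 2 rises among the 37 genes, and 0 inducible rises (HSP30 then had an adjusted p of 0.0548, in a range from 0.000515); SSA2, SSZ1, ZUO1, YDJ1, CPR7 and HSF1 lost the call there, and so did MSN2, RPN4 and GAC1. Leaving out single arrays gave 20 to 27 falls and 3 to 5 rises among the 37 genes, 9 to 15 constitutive falls (9 without wild type replicate 2), 1 to 2 inducible rises and inducible medians of -1.49 to -1.34; a strain with a lone array is assumed to vary like the other. Deviations of same-numbered replicates correlated at -0.03, so no shared deviation was seen. Whether same-numbered cultures were grown or processed together is not known here. With the replicate block 25 of the 37 genes fell, beside 31.7% of all genes, and 4 rose, beside 32.0%. HSF1 lost the call there (limma adjusted p = 0.0687). The cause of these changes was not tested. The signs of the paralog pairs held in the settings run for them. Signals near the top of the scale, above 13 on average for 16 of the 37 genes in the wild type, may limit the size of a difference.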
